A study of Mus musculus with 16 samples.

Results

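The genes described here are 10 components and targets of the NF-kB pathway: the subunit genes Rel, Relb and Nfkb2, the inhibitor genes Nfkbia, Nfkbie and Nfkbiz, the feedback genes Tnfaip3 and Birc3, and the output genes Icam1 and Tnf. They were given by name as a group, and each had 1 probe set annotated to it alone, so that all 10 were measured among 19938 genes. The study profiled bone marrow on 16 mouse arrays to ask what losing a Bank1 allele does in leukemia of B cell precursors. There were 6 arrays of leukemic cells from total marrow of mice heterozygous for both Bank1 and Pax5 (Bank1+/- Pax5+/-, here Bank1/Pax5 leukemia), 6 of leukemic cells from total marrow of Pax5+/- mice (Pax5 leukemia) and 4 of pro-B and pre-B cells from marrow of wild-type (WT) mice. Every leukemic mouse was heterozygous for Pax5, and the labels used here give neither age nor the share of leukemic cells. The mice lived in a conventional facility with natural exposure to infections. The design text counts 3 WT mice whereas 4 WT arrays carry replicate labels, so p-values measure the spread between arrays. The WT cells are a fraction of marrow (although their cell type label also reads leukemic) and the leukemias are total marrow, so that cell fraction and leukemia cannot be told apart in comparisons with WT. Y-linked genes were low on all 4 WT arrays and high on most leukemia arrays, so sex is partly tied to those comparisons as well.

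NF-kB is a family of dimeric transcription factors. In resting cells most dimers are held in the cytoplasm by inhibitor proteins, and signals from the B cell receptor, Toll-like receptors or TNF family receptors lead to degradation of the inhibitors and entry of the dimers into the nucleus. The dimers then switch on genes for their own inhibitors and for ubiquitin-editing enzymes, which end the response, so that these feedback genes are commonly read as a trace of recent NF-kB activity. In B cells the Rel subunit serves proliferation and survival, and the pathway through Relb and Nfkb2 serves survival after signals from receptors such as the BAFF receptor.

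Promoter sequence is shown because several of these genes are known NF-kB targets. RefSeq promoters (GRCm38.p6) were found for 8 of the 10 genes, not for Relb and Nfkbiz. The 250 bases before each start were searched on both strands for the kappaB consensus of NF-kB dimers, a motif of 10 bases. At least 1 match was present for 5 of the 8 genes, against 8.2% of 27025 genes in the table (7.3% of 32851 windows). Rel, Nfkb2, Nfkbia, Nfkbie and Tnfaip3 held a match, and the windows of Birc3, Icam1 and Tnf held none of this motif. A match is a description of letters, and so is its absence. The windows are printed 5′ to 3′ on the strand of the gene, with matches in capitals, and overlapping matches on the 2 strands form 1 run of capitals in Rel and in Nfkb2.
Rel, chr11:23770970-23771219, minus strand: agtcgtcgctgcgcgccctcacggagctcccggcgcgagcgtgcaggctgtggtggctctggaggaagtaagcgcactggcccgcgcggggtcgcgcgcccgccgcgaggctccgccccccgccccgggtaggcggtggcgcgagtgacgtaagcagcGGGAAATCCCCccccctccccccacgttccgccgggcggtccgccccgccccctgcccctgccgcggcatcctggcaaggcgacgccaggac
Nfkb2, the upstream of its 3 starts, chr19:46304487-46304736, plus strand: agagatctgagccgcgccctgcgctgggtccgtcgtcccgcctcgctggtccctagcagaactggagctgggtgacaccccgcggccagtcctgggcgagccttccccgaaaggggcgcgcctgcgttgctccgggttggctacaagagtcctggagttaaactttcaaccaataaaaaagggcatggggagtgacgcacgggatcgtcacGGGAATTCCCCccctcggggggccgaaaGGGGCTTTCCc
Nfkbia, chr12:55492648-55492897, minus strand: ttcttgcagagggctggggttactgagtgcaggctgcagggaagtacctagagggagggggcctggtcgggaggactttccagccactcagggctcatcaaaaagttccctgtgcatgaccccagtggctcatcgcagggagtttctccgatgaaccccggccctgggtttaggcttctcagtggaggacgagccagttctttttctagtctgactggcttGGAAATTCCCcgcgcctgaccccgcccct
Nfkbie, chr17:45555450-45555699, plus strand: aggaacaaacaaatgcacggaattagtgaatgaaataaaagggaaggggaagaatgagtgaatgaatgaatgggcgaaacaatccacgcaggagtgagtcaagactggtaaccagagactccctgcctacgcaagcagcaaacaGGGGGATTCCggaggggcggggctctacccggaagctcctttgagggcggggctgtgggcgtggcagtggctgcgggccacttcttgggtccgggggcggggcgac
Tnfaip3, the upstream of its 2 starts, chr10:19015411-19015660, minus strand: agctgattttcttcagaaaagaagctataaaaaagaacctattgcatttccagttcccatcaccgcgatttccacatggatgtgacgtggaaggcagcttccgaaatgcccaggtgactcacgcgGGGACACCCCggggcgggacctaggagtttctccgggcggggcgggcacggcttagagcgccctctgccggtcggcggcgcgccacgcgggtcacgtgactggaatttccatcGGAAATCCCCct
The match of Nfkbia began 29 bases before the start and that of Nfkbie 106 bases before it. In Tnfaip3 the matches began 125 and 12 bases before the start. The other starts of Nfkb2 held 1 match each, and that of Tnfaip3 held none.

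Both leukemias shared a pattern: Nfkbia, Nfkbie, Tnfaip3, Birc3 and Rel were lower than in WT precursors, and Tnf was higher. Of the 10 genes, 5 fell and 1 rose in Bank1/Pax5 leukemia against WT, and 6 fell and 2 rose in Pax5 leukemia against WT, by limma with Benjamini-Hochberg adjustment over all genes at an adjusted p under 0.05. Among all 19938 genes 19.6% changed in Bank1/Pax5 leukemia (12.8% lower, 6.8% higher) and 23.3% in Pax5 leukemia (13.8% lower, 9.53% higher). At an unadjusted p under 0.05, 9 of the 10 differed in Bank1/Pax5 leukemia (32.9% of all genes) and 8 in Pax5 leukemia (37.5%). The median log2 difference of the 10 genes was -0.66 in Bank1/Pax5 leukemia and -0.85 in Pax5 leukemia, where the median of all genes was -0.033 and -0.049. The 10 genes were chosen with earlier results of these data known, so their excess over all genes may come in part from the choice. Both comparisons use the same 4 WT arrays, so their likeness is not counted as support. Between the leukemias none of the 10 genes passed the test, where 6.7% of all genes did (1.71% higher, 5% lower).

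Facts of the whole data set bear on these values. Array medians lay between 6.58 and 6.71 log2. Bank1 averaged 8.63 ± 0.78 in Bank1/Pax5 leukemia and 10.18 ± 0.79 in Pax5 leukemia (SD, n = 6 each), against 9.17 ± 0.12 in WT cells (SD, n = 4). Between the leukemias it differed by -1.54 (Bank1/Pax5 minus Pax5, adjusted p = 0.0265, limma), and against WT it was called in neither (-0.53, adjusted p = 0.404, and 1.01, adjusted p = 0.0964), and array 3 of Bank1/Pax5 leukemia (9.52) exceeded every WT array. Pax5 reached only 7.85 on the lowest array of Bank1/Pax5 leukemia and 7.52 on that of Pax5 leukemia, against 11.85 to 12.12 in WT cells. With 3 leukemia arrays of low Pax5 left out (arrays 1 and 5 of Bank1/Pax5 leukemia, array 3 of Pax5 leukemia), 3 of the 10 genes remained called in Bank1/Pax5 leukemia against WT (Nfkbie, Tnfaip3 and Tnf), and 8 in Pax5 leukemia. Of 12 measured markers of B cell precursors, 4 were lower and none higher in each leukemia, and Bank1/Pax5 leukemias had a mean level of them from 7.74 to 10.79, Pax5 leukemias from 7.84 to 10.50 and WT cells from 11.21 to 11.48. The WT arrays fell into 2 pairs: the mean of 14 neutrophil markers was 9.79 and 9.67 on arrays 1 and 2, and 7.26 and 7.19 on arrays 3 and 4, while the mean level of the 10 genes was 9.39 on each of arrays 1 and 2, and 9.60 and 9.64 on arrays 3 and 4. Without WT arrays 1 and 2, 3 of the 10 genes were called in Bank1/Pax5 leukemia (Nfkbie, Tnfaip3 and Tnf) and 5 in Pax5 leukemia (these, Nfkbiz and Birc3). Without WT arrays 3 and 4, 2 were called in each (Tnfaip3 and Tnf), with fewer WT arrays in both of these fits. Fewer cells of a type and less RNA per cell cannot be told apart in these samples. How the split of calls depends on scaling is seen in all genes: the share of higher calls moved with cyclic loess to 2034 higher and 2012 lower in Bank1/Pax5 leukemia (1356 and 2543 as reported) and with median centring to 1086 and 5330. In the same order of scaling it moved to 2253 and 2225, and to 1644 and 3633, in Pax5 leukemia (1901 and 2754 as reported). No sign of the 10 genes against WT turned under either scaling.

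Among the subunits, Rel was lower in both leukemias, whereas Relb and Nfkb2 did not pass the test. Rel encodes the c-Rel subunit, which B lineage cells use for growth and survival. Its log2 level had a lowest, median and highest value of 9.97, 10.78 and 11.26 in Bank1/Pax5 leukemia and 10.41, 10.70 and 11.02 in Pax5 leukemia, against 11.25, 11.39, 11.56 and 11.53 on the 4 WT arrays. All Pax5 leukemias lay under every WT array, and 1 Bank1/Pax5 leukemia, array 6, reached the lowest of them. Rel fell by 0.75 on the log2 scale in Bank1/Pax5 leukemia (SE 0.21, adjusted p = 0.0209, limma) and by 0.71 in Pax5 leukemia (SE 0.21, adjusted p = 0.0233, limma).

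This call of Rel was the least stable of those in Bank1/Pax5 leukemia: it ended in 9 of 29 alternative settings, among them the fit with the mean of 9 marker lists of other cells as a covariate (log2 difference -0.28, adjusted p = 0.531), the fit of only these groups (0.0584), and the fits without array 3 (0.0654) or 4 (0.0628) of WT. In Pax5 leukemia it ended without WT array 3 (0.0674) or 4 (0.0695) or when Y-linked genes entered as a covariate (0.0977), and it held with markers of other cells as a covariate (-0.58, adjusted p = 0.0236). The level of that marker covariate overlapped between Pax5 leukemia and WT cells. All 4 WT arrays had a low mean of Y-linked genes (4.83 to 4.85), as did 2 Bank1/Pax5 leukemias and 1 Pax5 leukemia. On the other leukemia arrays this mean ran from 8.46 to 9.13. Y-linked genes mark male samples, so sex was uneven between the leukemias and WT cells. Sex cannot be fully told apart from leukemia in comparisons with WT.

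Relb encodes the subunit that pairs with the product of Nfkb2, itself made as a precursor that is cut after sustained signals. Relb was at 7.12, 7.39 and 7.95 (lowest, median, highest) in Bank1/Pax5 leukemia and 7.20, 7.38 and 8.05 in Pax5 leukemia, against 7.70, 7.65, 7.95 and 8.10 on the WT arrays. From WT it differed by -0.41 (SE 0.18, adjusted p = 0.122, limma) in the Bank1/Pax5 arrays and by -0.37 (SE 0.18, adjusted p = 0.140, limma) in Pax5 leukemia. Array 6 of Bank1/Pax5 leukemia and array 5 of Pax5 leukemia reached the WT range, and without array 6 the first difference passed (-0.52, adjusted p = 0.0419), as did the second without array 5 (-0.49, adjusted p = 0.0409). Nfkb2 spanned 8.39 to 9.64 around a median of 8.74 in Bank1/Pax5 leukemia and 8.20 to 10.14 around 8.85 in Pax5 leukemia, against 9.39, 9.35, 9.59 and 9.62 in WT cells. The leukemias thus extended from below to above the narrow WT range. The log2 difference of Nfkb2 was -0.58 (95% interval -1.30 to 0.14, adjusted p = 0.252) in Bank1/Pax5 leukemia and -0.53 (-1.25 to 0.19, adjusted p = 0.271) in Pax5 leukemia, both with limma.

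**Figure D1:**
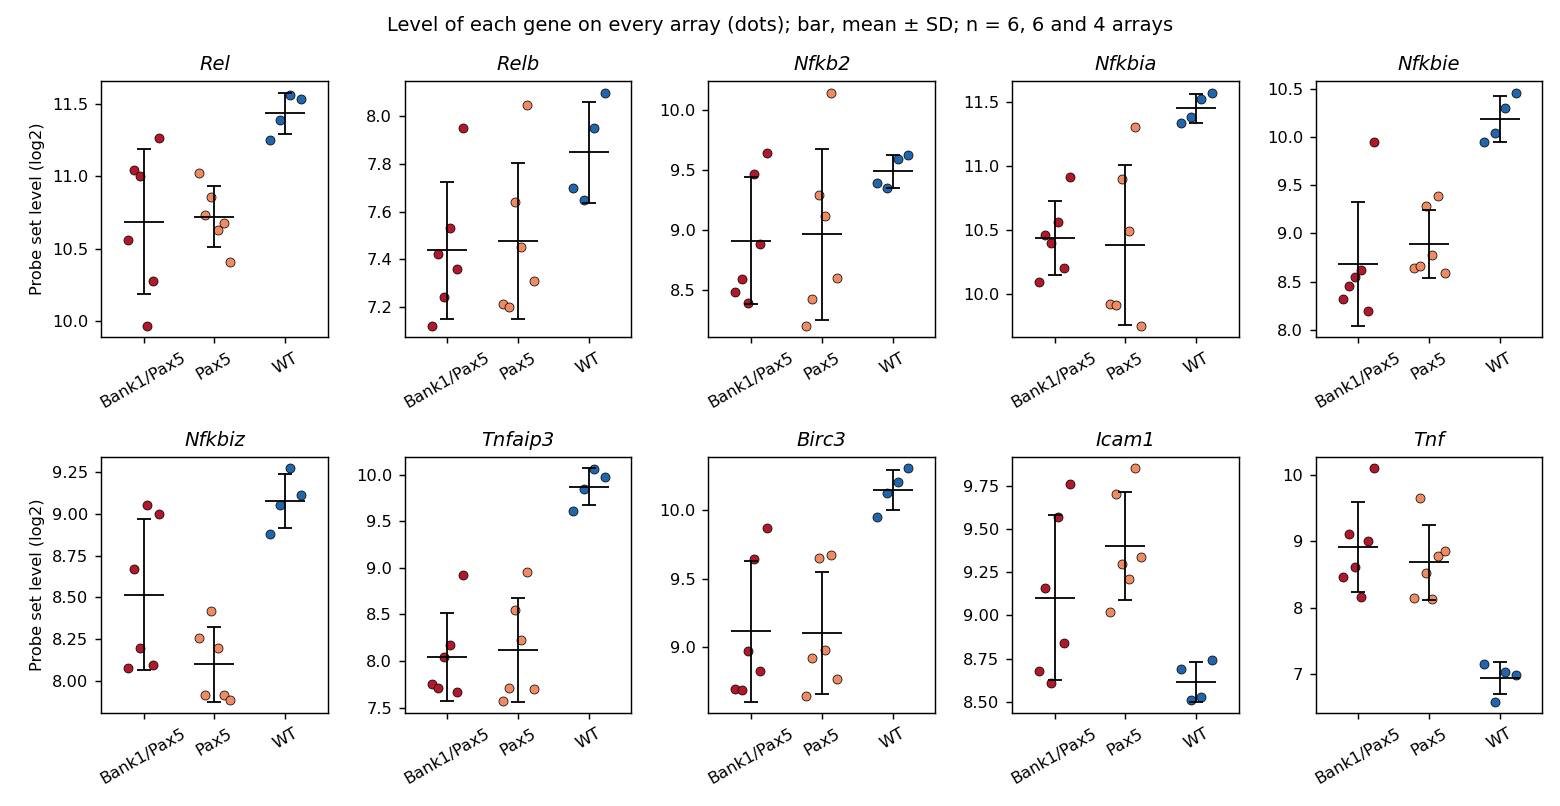
Log2 probe set level (vertical axes, a separate scale for each gene) of the 10 genes on every array, by group; dots are arrays, in replicate order within a group, and the bar and whiskers are mean ± SD (n = 6, 6 and 4). The leukemias of both genotypes lie mostly under the WT arrays for Rel, Nfkbia, Nfkbie, Tnfaip3 and Birc3, and all of them lie above the WT arrays for Tnf.

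Of the inhibitor genes, Nfkbia and Nfkbie fell in both leukemias and Nfkbiz in Pax5 leukemia. Nfkbia encodes the inhibitor that is degraded and remade fastest in the NF-kB response, which makes it the best known feedback gene of the pathway. It was at 10.09, 10.43 and 10.91 (lowest, median, highest) in Bank1/Pax5 leukemia and 9.75, 10.21 and 11.30 in Pax5 leukemia, against 11.33, 11.38, 11.52 and 11.57 on the WT arrays. All 12 leukemias lay under all WT arrays, array 5 of Pax5 leukemia only just. Nfkbia was 2.02-fold lower in Bank1/Pax5 leukemia (log2 difference -1.02, SE 0.26, adjusted p = 0.0141, limma) and 2.10-fold lower in Pax5 leukemia (-1.07, SE 0.26, adjusted p = 0.00942, limma). In Bank1/Pax5 leukemia the call ended with markers of other cells as a covariate (-1.05, adjusted p = 0.0936) and without the arrays with low Pax5 (-0.87, adjusted p = 0.0640).

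Nfkbie encodes a related inhibitor that preferentially holds dimers containing c-Rel or RelA. Its level ran from 8.20 through a median of 8.50 to 9.95 in Bank1/Pax5 leukemia and from 8.59 through 8.72 to 9.39 in Pax5 leukemia, while the WT arrays were at 9.95, 10.04, 10.30 and 10.46. The highest value in Bank1/Pax5 leukemia, again array 6, stood beside the lowest WT array, and the other 11 leukemias lay under all of them. Nfkbie fell by 1.51 on the log2 scale in Bank1/Pax5 leukemia (SE 0.29, adjusted p = 0.00189, limma) and by 1.30 in Pax5 leukemia (SE 0.29, adjusted p = 0.00470, limma). Both calls held in 28 of 29 alternatives, not all of which could change the differences, and ended without WT arrays 3 and 4 (adjusted p = 0.0599 in Bank1/Pax5 leukemia and 0.103 in Pax5 leukemia).

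Nfkbiz encodes an atypical, nuclear member of the inhibitor family, which acts with NF-kB on a subset of its target genes. Levels were 8.08, 8.44 and 9.05 (lowest, median, highest) in Bank1/Pax5 leukemia and 7.89, 8.06 and 8.42 in Pax5 leukemia, against 8.88, 9.05, 9.27 and 9.11 in WT cells. Pax5 leukemias all lay under WT, and arrays 4 and 6 of Bank1/Pax5 leukemia fell within the WT range. Nfkbiz was 1.97-fold lower in Pax5 leukemia (-0.98, SE 0.20, adjusted p = 0.00248, limma). In Bank1/Pax5 leukemia its log2 difference of -0.56 (SE 0.20) just missed the test (adjusted p = 0.0577, range 0.00352 to 0.385), and it passed in 6 of 29 alternatives, among them the fits without array 4 (0.0182) or array 6 (0.0267).

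Tnfaip3, the gene of a ubiquitin-editing enzyme that shuts off signalling from TNF and Toll-like receptors, showed the largest fall of the 10 genes in both leukemias. It was at 7.67, 7.90 and 8.92 (lowest, median, highest) in Bank1/Pax5 leukemia and 7.57, 7.97 and 8.95 in Pax5 leukemia, against 9.61, 9.85, 10.06 and 9.97 on the WT arrays. All leukemias lay under all WT arrays. Tnfaip3 was 3.56-fold lower in Bank1/Pax5 leukemia (-1.83, SE 0.28, adjusted p = 0.000389, limma) and 3.38-fold lower in Pax5 leukemia (-1.76, SE 0.28, adjusted p = 0.000483, limma), and both calls held in all 29 alternatives. Several of these alternatives could not change the difference itself.

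Birc3 encodes an inhibitor-of-apoptosis protein with ubiquitin ligase activity, induced by NF-kB and acting back on both arms of the pathway. Its levels were 8.69, 8.90 and 9.87 (lowest, median, highest) in Bank1/Pax5 leukemia and 8.65, 8.95 and 9.67 in Pax5 leukemia, against 9.95, 10.12, 10.20 and 10.30 in WT cells. No leukemia reached a WT array. Birc3 differed from WT by -1.02 (SE 0.26, adjusted p = 0.0124, limma) in the Bank1/Pax5 arrays and by -1.03 (SE 0.26, adjusted p = 0.0105, limma) in Pax5 leukemia. The first call ended without the arrays with low Pax5 (-0.85, adjusted p = 0.0551).

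Of the output genes, Tnf rose in both leukemias and Icam1 in Pax5 leukemia. Icam1 encodes an adhesion molecule that leukocytes and endothelial cells display after inflammatory signals. It was at 8.61, 9.0 and 9.76 (lowest, median, highest) in Bank1/Pax5 leukemia and 9.02, 9.32 and 9.85 in Pax5 leukemia, against 8.69, 8.51, 8.53 and 8.74 on the WT arrays. All Pax5 leukemias exceeded WT, whereas arrays 1 and 3 of Bank1/Pax5 leukemia lay in the WT range. Icam1 was 1.72-fold higher in Pax5 leukemia (0.79, SE 0.22, adjusted p = 0.0182, limma), a call that ended without WT array 3 (0.0526) or when Y-linked genes entered as a covariate (0.59, adjusted p = 0.183). In Bank1/Pax5 leukemia its log2 difference was 0.49 (95% interval 0.018 to 0.95, adjusted p = 0.137).

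Tnf, the gene of the cytokine that both activates NF-kB and is induced by it, was higher on all 12 leukemia arrays than on any WT array. Its level was 8.16, 8.82 and 10.10 (lowest, median, highest) in Bank1/Pax5 leukemia and 8.14, 8.65 and 9.66 in Pax5 leukemia, against 7.16, 6.59, 7.03 and 6.99 in WT cells. The WT mean of 6.94 lies under the median of all probe sets with 1 gene (7.01), so the size of the difference is not well bounded. Tnf was 3.91-fold higher in Bank1/Pax5 leukemia (1.97, SE 0.34, adjusted p = 0.000985, limma) and 3.34-fold higher in Pax5 leukemia (1.74, SE 0.34, adjusted p = 0.00216, limma), and both calls held in all 29 alternatives, several of which could not change the difference itself.

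Counted over the 10 genes, the groups did not overlap for 3 lower genes (Nfkbia, Tnfaip3 and Birc3) and 1 higher gene (Tnf) in Bank1/Pax5 leukemia against WT, where 12.3% and 7.35% of all genes had no overlap. For Pax5 leukemia against WT there were 6 lower genes and 2 higher, with 13.2% and 11.6% among all genes.

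**Figure D2:**
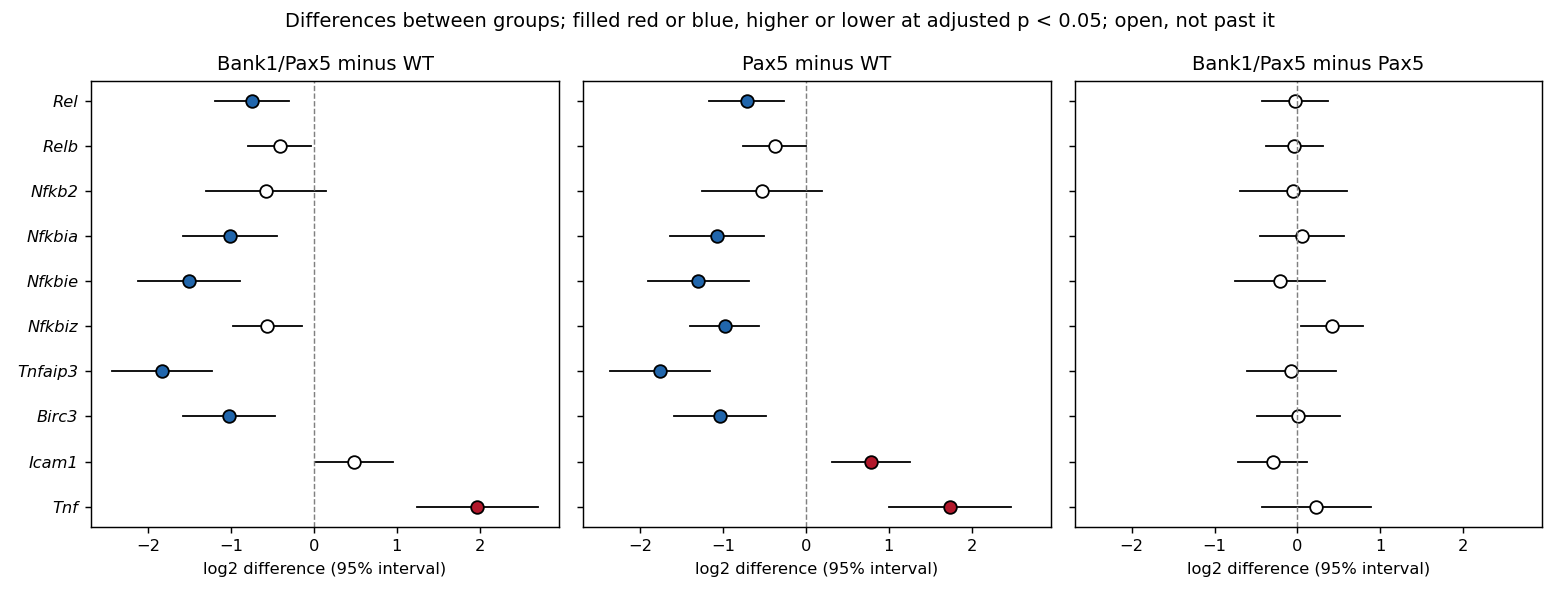
Log2 difference (horizontal axis) of each gene in the 3 comparisons, each panel titled by its pair of groups; lines are 95% intervals from the fit to all 16 arrays, and filled points passed an adjusted p under 0.05. Tnfaip3 lies farthest to the left and Tnf farthest to the right in both comparisons with WT, and all 10 points of the third panel are open.

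Markers of other marrow cells also differed between the leukemias and WT cells. Of 15 markers of monocytes and macrophages, cells that make Tnf and Icam1, 11 were higher and none lower in Bank1/Pax5 leukemia against WT, and 7 were higher and none lower in Pax5 leukemia against WT. The arrays of Bank1/Pax5 leukemia had a mean log2 level of these markers from 8.52 to 10.42, those of Pax5 leukemia from 8.20 to 9.24 and those of WT from 7.08 to 7.27, and 11 of the 15 were dim in WT (mean under 7.01). C1qb, a macrophage gene, averaged 10.92 ± 0.80 in Bank1/Pax5 leukemia and 10.21 ± 0.76 in Pax5 leukemia (SD, n = 6 each), against 6.56 ± 0.23 in WT cells (SD, n = 4). Stromal and endothelial markers were higher in 8 and 9 of 13, with a mean level from 8.24 to 9.83 (Bank1/Pax5 leukemia), from 8.08 to 9.27 (Pax5 leukemia) and from 6.80 to 6.93 (WT). Among the remaining lists, megakaryocyte markers were higher in 7 and 5 of 7, NK markers lower in 5 and 8 of 10, neutrophil markers higher in 0 and 1 of 14, erythroid markers lower in 0 and 1 of 9, T cell markers lower in 0 and 1 of 9, plasma cell markers higher in 1 and 0 and lower in 2 and 2 of 8, and no dendritic marker of 9 passed, in Bank1/Pax5 and in Pax5 leukemia against WT. With the mean of 9 marker lists as a covariate, Tnf differed by 1.97 in Bank1/Pax5 leukemia (adjusted p = 0.0171) and by 1.74 in Pax5 leukemia (adjusted p = 0.00347), and Tnfaip3 by -1.97 (adjusted p = 0.00565) and -1.80 (adjusted p = 0.000658), all with limma. That covariate averages all 9 lists, of which some were higher and others lower in the leukemias. Its level overlapped between Pax5 leukemia (7.60 to 8.50) and WT cells (7.61 to 8.07), and ran from 7.94 to 9.38 in Bank1/Pax5 leukemia. A fit with it therefore adjusts little for cell content between Pax5 leukemia and WT cells. The part of any single cell type was not tested.

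**Figure D3:**
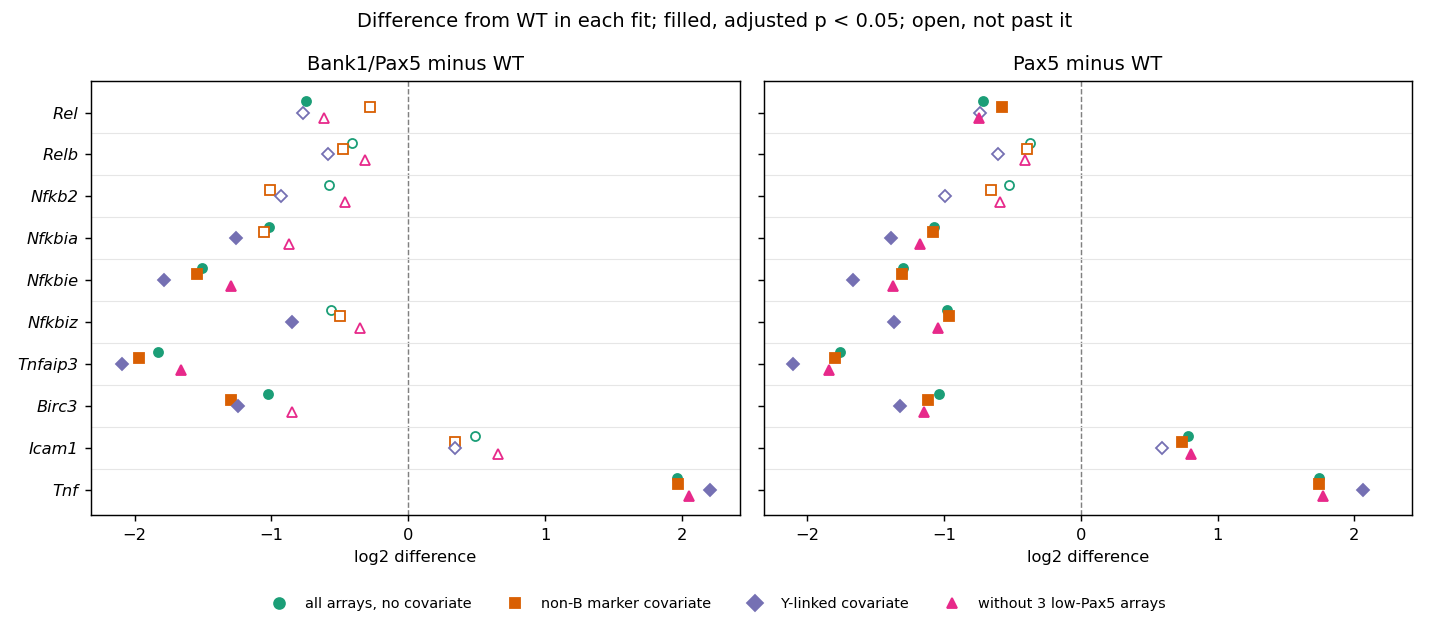
Log2 difference from WT (horizontal axis) of each gene for Bank1/Pax5 leukemia and Pax5 leukemia in 4 fits: all arrays without a covariate, with the mean of the non-B marker lists or of Y-linked genes as a covariate, and without the 3 arrays with low Pax5. Filled symbols passed an adjusted p under 0.05. Tnfaip3, Nfkbie and Tnf are filled in every fit of both panels, and Rel moves to -0.28 with the marker covariate in Bank1/Pax5 leukemia.

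Immediate early and stress genes, which respond to handling of cells as well as to signals, were also lower: 11 of 21 in Bank1/Pax5 leukemia and 13 of 21 in Pax5 leukemia, with none higher in either. Their mean log2 level was 7.75 to 7.97 in Bank1/Pax5 leukemia and 7.68 to 7.85 in Pax5 leukemia, against 8.65 to 8.89 in WT cells. Btg2, a gene of growth arrest, averaged 9.97 ± 0.43 in Bank1/Pax5 leukemia and 9.97 ± 0.32 in Pax5 leukemia (SD, n = 6 each), against 12.23 ± 0.08 in WT cells (SD, n = 4). The part of sample preparation in the lower NF-kB feedback genes was not tested.

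Between the leukemias the 10 genes showed no difference that passed limma's test. At an unadjusted p under 0.05 there was 1, Nfkbiz, where 22.7% of all genes were. Its log2 difference, Bank1/Pax5 minus Pax5, was 0.42 (95% interval 0.042 to 0.79, adjusted p = 0.174, limma; 0.0429 to 0.376 over the alternatives). Its arrays overlapped, with arrays 2, 4 and 6 of Bank1/Pax5 leukemia (8.67, 9.05 and 9.0) above all Pax5 leukemias and the other 3 among them. Without the 3 arrays with low Pax5 the difference passed (0.69, adjusted p = 0.0429). For Tnfaip3 the interval of the difference ran from -0.61 to 0.47 and for Nfkbia from -0.45 to 0.56, so that changes of up to about those sizes cannot be told from none. The interval of Icam1 was -0.72 to 0.12 and that of Tnf -0.43 to 0.88. All 10 genes overlapped between the leukemias, where 0.833% of all genes were higher and 1.87% lower without overlap.

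Levels varied among leukemias of the same genotype, and several of these genes varied together. Array 6 of Bank1/Pax5 leukemia had the highest value of its group for 9 of the 10 genes, Nfkbiz being the exception. Array 5 of Pax5 leukemia had the highest value of its group for 7 of them. On that array Nfkb2 was at 10.14, Nfkbia at 11.30 and Tnfaip3 at 8.95, beside group medians of 8.85, 10.21 and 7.97.

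With group means subtracted, the 45 pairs of genes correlated over the 12 leukemia arrays at a median Pearson r of 0.55 and a median Spearman rho of 0.55, and 43 pairs were positive. Relb, Nfkb2, Nfkbia, Nfkbie, Tnfaip3 and Birc3, a set picked after these values were seen, had r from 0.72 to 0.94 (median 0.88) and rho from 0.69 upward over their 15 pairs. Nfkbia and Tnfaip3, an inhibitor and an enzyme that act at different steps, had r = 0.92 and rho = 0.92, and r = 0.91 without the 2 arrays farthest from the median of Nfkbia. Leaving out the 2 farthest arrays of the first gene of each pair gave r of at least 0.52 (median 0.80) within the set. Rel and Tnf stood outside it: with the 6 genes Rel had r from -0.14 to 0.48 and Tnf from 0.08 to 0.49, and the values of Tnf became -0.41 at the lowest without the farthest arrays. Icam1 had r from 0.51 to 0.73 with the 6 genes, and its median of 0.69 became 0.42 without the farthest arrays. Nfkbiz had r from 0.41 to 0.60 with the 6 genes, and from 0.22 to 0.46 without array 6 of Bank1/Pax5 leukemia. By genotype, its r ran from 0.65 to 0.87 in Bank1/Pax5 leukemia and from -0.06 to 0.22 in Pax5 leukemia (6 arrays each). With array 6 of Bank1/Pax5 leukemia left out, the 15 pairs of the set had r from 0.78 to 0.95, Rel from -0.45 to 0.08 with them, Tnf from -0.26 to -0.10 and Icam1 from 0.41 to 0.63, and 32 of the 45 pairs were positive. The arrays share total marrow RNA of varying cell content, so these values are descriptions.

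**Figure D4:**
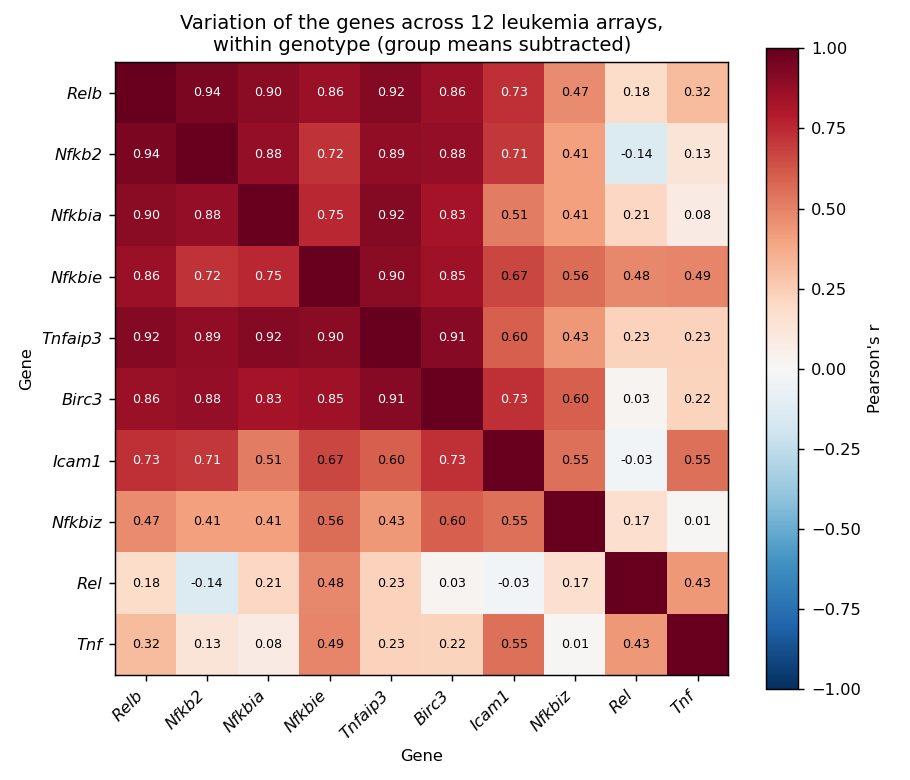
Pearson's r between each pair of the 10 genes over 12 leukemia arrays after subtracting the mean of each genotype; both axes list genes and colour gives r from -1 to 1. The block of Relb, Nfkb2, Nfkbia, Nfkbie, Tnfaip3 and Birc3 holds values from 0.72 to 0.94, while the rows of Rel and Tnf are pale.

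Some lists of cell markers varied with some of these genes. The mean of the 10 genes (each centred on its group means and divided by its SD) had r = -0.63 with B cell precursor markers. It had r = 0.71 with NK markers (0.22 without array 6 of Bank1/Pax5 leukemia) and 0.57 with dendritic cell markers (0.37 without it). For the other marker lists r lay between -0.42 (erythroid) and 0.42 (T cell), with 0.04 for monocytes and macrophages. Over the same 12 arrays the mean level of B cell precursor markers had r = -0.84 with Nfkb2, -0.84 with Birc3 and -0.71 with Tnfaip3, but 0.33 with Rel, again after subtracting group means. Monocyte and macrophage markers had r = -0.79 with Rel, 0.33 with Nfkb2, 0.01 with Tnfaip3 and 0.08 with Tnf. Rel also had r = -0.75 with megakaryocyte, -0.72 with stromal and endothelial, -0.69 with erythroid and -0.45 with neutrophil markers. Without array 6 of Bank1/Pax5 leukemia, the B cell precursor markers had r = -0.83 with Nfkb2, -0.88 with Birc3 and -0.73 with Tnfaip3, and Rel had r = -0.90 with monocyte and macrophage markers. By rank the relation of the B cell precursor markers was weaker: their Spearman rho with the mean of the 10 was -0.48, and -0.39 without that array. In WT cells the B cell marker mean (11.21 to 11.48), Nfkbia, Tnfaip3 and Birc3 were above every leukemia. NK cell markers had r = 0.80 with Nfkbie, which rested on array 6 of Bank1/Pax5 leukemia (NK marker mean 7.79, other arrays of the group 6.00 to 6.67): without it r was 0.22. Dendritic cell markers had r = 0.72 with Birc3, 0.67 with Nfkbie and 0.65 with Tnfaip3, but 0.21 with Icam1 and 0.07 with Tnf. Without array 6 the first 3 of these were 0.62, 0.57 and 0.52. Plasma cell markers had r = -0.57 with Nfkbia and -0.17 with Nfkbie, and -0.71 with each without array 6. The part of cell content in these relations was not tested.

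Among all other genes, those whose variation over the 12 leukemias was most like the mean of the 10 (each gene centred on its group means and divided by its SD) were Tmem150c (r = 0.926), Scel (0.923), Irf2bp2 (0.916), Icosl (0.915), Tnfsf8 (0.913), Mfhas1 (0.911), Dusp22 (0.906), Ccdc102a (0.906), Tmem14a (0.904) and Snx12 (0.903). They are the top of 19928 genes, so a high r is given by the choice. Their Spearman rho ran from 0.62 (Tnfsf8) to 0.87 (Tmem150c). Array 6 of Bank1/Pax5 leukemia had the highest mean of the 10 (1.67), and the list was not repeated without it. Icosl encodes a costimulatory ligand of B cells and Tnfsf8 a ligand of the TNF family, and they varied over 2.09 and 2.79 log2 among the leukemias, while Tmem150c varied over only 0.43.

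The rest of the pathway was mixed, with calls in both directions. Of 101 further NF-kB genes listed, 90 were measured, and 13 were higher and 18 lower in Bank1/Pax5 leukemia against WT (34.4%, beside 19.6% of all genes) and 13 higher and 17 lower in Pax5 leukemia against WT (33.3%, beside 23.3%). Between the leukemias 1 was higher and 3 were lower (4.4%, beside 6.7% of all genes), and the groups overlapped for each of them. These lists were also chosen with earlier results of these data known. Among 10 other subunits, inhibitors and kinase genes, 2 fell against WT in Bank1/Pax5 leukemia and 1 in Pax5 leukemia, and none rose. Nfkbid, an atypical inhibitor gene like Nfkbiz, averaged 7.69 ± 0.21 in Bank1/Pax5 leukemia and 8.10 ± 0.38 in Pax5 leukemia (SD, n = 6 each), against 10.17 ± 0.29 in WT cells (SD, n = 4). Its log2 differences from WT of -2.48 (SE 0.19, adjusted p = 8.63e-07) and -2.07 (SE 0.19, adjusted p = 4.55e-06) exceeded those of all 10 genes above. Nfkbib, which encodes a classical inhibitor, fell in Bank1/Pax5 leukemia against WT (-0.83, SE 0.16, adjusted p = 0.00232) and against Pax5 leukemia (-0.51, SE 0.14, adjusted p = 0.0475). Rela, the main activating subunit and named here after its values were seen, averaged 9.83 ± 0.15 (Bank1/Pax5 leukemia), 9.76 ± 0.20 (Pax5 leukemia) and 10.01 ± 0.08 (WT), and did not pass against WT (adjusted p = 0.231 and 0.0865). Nfkb1 was not analysed here.

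Among 27 measured receptors and adaptors, 6 rose and 9 fell in Bank1/Pax5 leukemia, and 6 rose and 5 fell in Pax5 leukemia. Among the lower ones, Traf6, a ubiquitin ligase of Toll-like receptor signalling, was at 9.57 ± 0.13 in Bank1/Pax5 leukemia and 9.76 ± 0.26 in Pax5 leukemia (SD, n = 6 each), against 10.88 ± 0.04 in WT cells (SD, n = 4). Traf5, an adaptor of TNF family receptors, differed by -1.90 (SE 0.24) and -1.43 (SE 0.24), and Tab2, a partner of the kinase encoded by Map3k7, by -0.60 and -0.47 (SE 0.056 each). Tnfrsf1b, a receptor for TNF, rose by 0.52 and 0.79 (SE 0.17 each). Between the leukemias, Tnfrsf13c, the BAFF receptor gene, fell by 1.12 on the log2 scale in Bank1/Pax5 leukemia (SE 0.30, adjusted p = 0.0382) and Map3k7 by 0.54 (SE 0.12, adjusted p = 0.0189), and the other 25 did not pass. In that comparison the 12 measured markers of B cell precursors had a median log2 difference of -0.47, with 0 called, and their part was not tested.

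Of 13 other brakes on the pathway, 2 rose and 2 fell in Bank1/Pax5 leukemia, and 2 rose and 3 fell in Pax5 leukemia. Zc3h12a, a ribonuclease that degrades inflammatory transcripts and is induced with the feedback genes, was at 8.32 ± 0.30 in Bank1/Pax5 leukemia and 8.35 ± 0.29 in Pax5 leukemia (SD, n = 6 each), against 9.08 ± 0.21 in WT cells (SD, n = 4), and fell in both (-0.76 and -0.73, SE 0.17 each). Tnfaip8l2 rose (0.64 and 0.85, SE 0.089 each). Of 40 other target genes, 5 rose and 5 fell in Bank1/Pax5 leukemia, and 5 rose and 8 fell in Pax5 leukemia. Among all genes 6.8% rose and 12.8% fell in Bank1/Pax5 leukemia, and 9.53% and 13.8% in Pax5 leukemia, a background for each NF-kB list. Vcam1, an adhesion molecule of stromal cells and marrow macrophages, rose by 4.41 and 4.05 on the log2 scale (SE 0.38 each) and is also among the macrophage markers. Relt, a TNF receptor family gene, rose by 1.53 and 2.17 (SE 0.23 each). Junb fell by 0.49 and 0.68 (SE 0.086 each), Plk2 by 1.97 and 2.05 (SE 0.28 each) and Ptgs2 by 0.67 and 0.70 (SE 0.084 each), and Plk2 was dim in both leukemias and Ptgs2 in all 3 groups. Of these targets 21 were dim in WT cells, 17 in Pax5 leukemia and 13 in Bank1/Pax5 leukemia, which limits what their differences show. Ccl5, a chemokine gene of T and NK cells, was the only target to pass between the leukemias, at 9.74 ± 1.22 in Bank1/Pax5 leukemia and 8.15 ± 0.31 in Pax5 leukemia (SD, n = 6 each, log2 difference 1.58, SE 0.44, adjusted p = 0.0433, limma). Both means lay under that of WT cells (10.95 ± 0.36, SD, n = 4). Against WT, Ccl5 was lower in Pax5 leukemia (-2.80, adjusted p = 0.000894, limma) and did not pass in Bank1/Pax5 leukemia (-1.22, adjusted p = 0.0943, limma). Between the leukemias 3 of 10 NK markers and 2 of 9 T cell markers were higher in Bank1/Pax5 leukemia, among them Eomes (0.92, adjusted p = 0.0311) and Cd3g (2.03, adjusted p = 0.0187), and their part in the difference of Ccl5 was not tested.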

How the data were processed

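Total RNA of 16 mouse bone marrow samples was labelled with biotin and read on oligonucleotide arrays. Per the submitters' processing notes, the authors ran RMA in oligo (no version stated), so the deposited table holds normalized log2 intensities. No batch is given in the labels. The annotation tied 21789 of 35556 probe sets to a single gene, 1621 to more and left 12146 unnamed. The probe set with the highest mean was kept per gene, which left 19938 genes. The number of arrays limits the precision.

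With limma 3.58.1 (R 4.3.3), a model of 1 mean per group over the 16 arrays was moderated by empirical Bayes. A gene was called where the p-value of limma's two-sided test, adjusted by Benjamini-Hochberg across every gene, was under 0.05, and a fold is the difference of log2 means turned to a ratio. The procedure was tested on simulated data. Dim means a group mean below 7.01, the midpoint level of annotated probe sets. The members and lists were chosen with earlier results of these data known. Named genes were the 10 members, Bank1 and Pax5, up to 4 called genes with the smallest p of each other NF-kB list and comparison, up to 2 of each marker or early gene list, and the 10 genes most like the members. The marker covariate is the mean of 9 lists: monocytes and macrophages, stromal and endothelial cells, neutrophils, megakaryocytes, erythroid, NK, T, plasma and dendritic cells. Leaving out pairs of WT arrays, and array 6 of Bank1/Pax5 leukemia from correlations, was chosen after seeing the data. Alternatives were other probe set rules, a dim filter, scalings, moderation, array weights, fewer arrays and covariates. Each of the 10 genes had 1 probe set, so averaging probe sets, removing dim ones or other moderation could change only their p-values. Leaving out an array of either leukemia likewise left the difference of the other leukemia from WT as it was. Promoters came from RefSeq (GRCm38.p6).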

Additional observations from a re-analysis of the deposited data

Results flagged for a closer look

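Nfkbie on array 6 of Bank1/Pax5 leukemia was at 9.95 log2, far from the other arrays of its group, of which the nearest was at 8.62; the gap made up 0.76 of the range of the group, above the critical value of 0.625 for 6 arrays. Without this array the log2 difference of Nfkbie from WT was -1.76, against -1.51 with it. Of the 30 gene and group combinations examined this was the only one, and chance gives about 1 in 20.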

How the results depend on the processing

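Over the alternatives run, no difference of the 10 genes from WT changed sign. The number of genes called of the 10 stayed within 1.5 times the reported one in all settings against WT, except for 3 in Bank1/Pax5 leukemia with the 3 low-Pax5 arrays left out (6 as reported) and for fits with only a pair of WT arrays, chosen after seeing the data: 3 in Bank1/Pax5 leukemia and 5 in Pax5 leukemia without WT arrays 1 and 2, and 2 and 2 without WT arrays 3 and 4 (8 as reported in Pax5 leukemia); leaving out 1 array at a time gave 5 to 8 there, 6 to 9 in Pax5 leukemia and 0 to 0 between the leukemias. Between the leukemias 1 gene was called with the 3 low-Pax5 arrays left out. Differences between the leukemias were near 0 and turned sign for several genes, none of them called: Nfkbia (-0.0046) and Birc3 (-0.048) with median centring; Rel (0.086), Relb (0.0030), Nfkb2 (0.067) and Tnfaip3 (0.027) with cyclic loess; Rel (0.023), Nfkbia (-0.086) and Birc3 (-0.12) with array weights; Rel (0.13), Relb (0.094), Nfkb2 (0.13), Nfkbie (0.077) and Tnfaip3 (0.18) with the 3 low-Pax5 arrays left out; Rel (0.30) and Birc3 (-0.18) with the marker covariate; Relb (0.020), Nfkb2 (0.064) and Tnfaip3 (0.012) with the Y-linked covariate. With 1 array left out they ran from -0.15 to 0.11 for Rel, -0.14 to 0.077 for Relb, -0.20 to 0.18 for Nfkb2, -0.073 to 0.24 for Nfkbia, -0.25 to 0.093 for Tnfaip3, -0.14 to 0.12 for Birc3 and -0.010 to 0.42 for Tnf. The cause was not tested.

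Counts over all genes moved more. Against WT, Bank1/Pax5 leukemia had 6416 calls with median centring, 6486 with array weights, 2542 with the replicate block and 1961 with the marker covariate (3899 as reported; 2678 to 4531 with 1 array left out). Pax5 leukemia had 8104 with array weights (4655 as reported; 3072, without WT array 4, to 5560 with 1 array left out). Between the leukemias there were 446 with only those groups, 659 with the 3 low-Pax5 arrays left out, 377 with the marker covariate and 696 with the replicate block (1336 as reported; 725, without array 5 of Bank1/Pax5 leukemia, to 1742 with 1 array left out, and 870 and 846 without array 4 or 5 of Pax5 leukemia). The split between the leukemias was 167 higher and 1185 lower with median centring and 451 and 588 with cyclic loess (340 and 996 as reported). Without WT arrays 1 and 2 the counts were 1813, 2561 and 731 (Bank1/Pax5 against WT, Pax5 against WT, Bank1/Pax5 against Pax5), and without WT arrays 3 and 4 they were 1331, 1548 and 735. The labels do not say that replicate numbers pair the samples. Deviations from group means correlated above 0.1 in 6 of 14 same-numbered pairs (-0.379 to 0.321). Pairs with different numbers were not compared, so these values do not decide whether the numbers pair samples. With the replicate block 5 of the 10 genes were called in Bank1/Pax5 leukemia, where Rel ended (adjusted p = 0.0687), and 6 in Pax5 leukemia, where Rel (0.0711) and Icam1 (0.0687) ended.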
